A study of Sinohyriopsis cumingii with 2 samples.

Results

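The let-7 family and its close relative miR-98 were followed in small RNA libraries of exosomes, the small vesicles that cells release, taken from mussel mantle. Members were found by name. An entry belonged to the family when its name, after the species prefix, began with let-7 or was miR-98, and entries with the same mature sequence were joined to 1 item. This gave 14 of the 170 distinct mature sequences (8.24%) and 259 of the 1404 catalogue entries (18.4%) in the deposited table. The libraries came from healthy freshwater pearl mussels, Hyriopsis cumingii (named Sinohyriopsis cumingii in the sample labels), of a purple and a white phenotype. The labels put both groups at about 2 years of age and at 9 cm of shell length on average, and name no treatment for either. The purple and the white group had 1 library each, so differences could not be checked against replicates and none was tested. The labels do not say how many mussels were pooled for a library. In a bulk preparation, fewer vesicles from a cell type and less RNA per vesicle cannot be told apart.

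The let-7 miRNA was first described in the nematode Caenorhabditis elegans as a switch of larval timing, and its mature sequence is shared by most animals with bilateral symmetry. Insects and molluscs are known mainly for a single let-7, while vertebrates carry several lettered members that differ by a few bases. A miRNA binds messenger RNAs chiefly through its seed, bases 2 to 8, so members with the same seed are predicted to share targets. Known targets in mammals include RAS and HMGA2, and the RNA-binding protein LIN28 blocks the maturation of let-7 precursors. In Drosophila, let-7 is transcribed together with miR-100 and miR-125.

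All 14 sequences are given below as the deposited table lists them, 5′ to 3′, with the seed in capitals, because the members and their length forms differ only outside it. The prefix names the species of the entry: hsa is human, bmo the silkworm, aca the green anole, ggo the gorilla, gga the chicken, ccr the carp and ssc the pig. The human name is used for a sequence that has one, and the first listed name for the rest.
hsa-let-7a-5p: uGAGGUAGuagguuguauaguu
bmo-let-7-5p: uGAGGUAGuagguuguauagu
hsa-let-7b-5p: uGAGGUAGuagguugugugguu
aca-let-7b-5p: uGAGGUAGuagguuguguggu
hsa-let-7d-5p: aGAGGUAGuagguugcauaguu
aca-let-7d-5p: aGAGGUAGuagguugcauagu
hsa-let-7f-5p: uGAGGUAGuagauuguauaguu
ggo-let-7f: uGAGGUAGuagauuguauagu
hsa-let-7g-5p: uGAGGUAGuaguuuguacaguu
gga-let-7g-5p: uGAGGUAGuaguuuguacagu
hsa-let-7i-5p: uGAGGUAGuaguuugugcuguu
ccr-let-7i: uGAGGUAGuaguuugugcugu
ssc-let-7i: uGAGGUAGuaguuugugcu
hsa-miR-98-5p: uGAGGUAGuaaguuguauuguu

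The same seed stood in 14 of 14 members and in 0 of the other 156 listed sequences. There were 7 sequences of 22 nt, 6 of 21 nt and 1 of 19 nt. Each 21-nt form was its member's 22-nt form without the last base, a U, and the 19-nt form ssc-let-7i lacked the last 3 bases of hsa-let-7i-5p. Across the 7 members of 22 nt, 15 of 22 positions were identical: 2 to 10, 13 to 15 and 20 to 22. A first base U was found in 12 of 14 members (85.7%), the exceptions being both let-7d forms, and in 97 of the other 156 sequences (62.2%).

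Differences from let-7a are written as the let-7a base, the position from 1 at the 5′ end, and the member's base. The member let-7f differed by G12A alone, which made let-7a and let-7f the closest of the 21 pairs. Of the more distant members, let-7g carried G12U and U18C, and let-7i carried G12U, A17G, U18C and A19U. The member let-7b carried A17G and A19G, let-7d carried U1A and U16C, and miR-98 carried G11A and A19U. The farthest pair was let-7d and let-7i, with 6 mismatches. How the authors assigned a tag that matches several such sequences is not stated, so the split between close members, above all let-7a and let-7f, is uncertain. The same holds for the split between the length forms of 1 member.

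The let-7a sequences were the members listed for protostomes, the animal branch that holds insects, worms and molluscs. The 22-nt hsa-let-7a-5p had 89 entries from 38 species: 27 vertebrates, 7 nematodes, 2 lancelets, 1 acorn worm and 1 mollusc, the owl limpet. Its 21-nt form bmo-let-7-5p had 21 entries from 19 species, namely 14 insects, 1 annelid, 1 tick and 3 vertebrates. The other 12 sequences carried vertebrate prefixes alone. No 3p-arm entry of let-7 was listed (0 of 259), and none of the 1404 entries was named let-7c, let-7e or let-7k.

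Abundance is given in tags, the read counts that the authors assigned to a sequence. The let-7 sequences held 408 tags of the 3141 on all listed sequences in the purple library, or 13.0% (95% exact binomial interval 11.8 to 14.2). They held 294 of 1820 tags in the white library, or 16.2% (14.5 to 17.9). All 14 members were listed in purple and 11 in white. An empty cell means under 2 tags, not absence. Tags have no molecular identifiers, so every interval covers counting error only. Within rounding, 23 of the 25 listed let-7 values could not be whole tags before the authors rounded them, against 198 of 270 values of the other sequences. Among the other sequences with a single entry, this held for 44 of 81 values. Entries that share a sequence hold equal values. It is unknown if its tags were repeated for each entry or split between them. With a split, the tags below would be too low by a factor equal to the number of entries. Their intervals would then be too wide relative to the tags. Each statement below that no difference or shift was detectable rests on counting each sequence once.

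The let-7i sequences led in both libraries. In human bile duct cells, let-7i is known to repress the receptor TLR4. The 22-nt hsa-let-7i-5p had 185 purple tags (exact Poisson interval 159 to 214) and 149 white tags (126 to 175). Its 21-nt form ccr-let-7i had 11 purple and 7 white tags. The 19-nt ssc-let-7i had 2 purple tags and an empty white cell. The leading form thus held 5.89% of all listed purple tags and 8.19% of the white ones.

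The members let-7g and let-7f came next. Experimentally, let-7g restrains lung tumours in mice, and let-7f is linked to blood vessel growth in human endothelial cells. The 22-nt hsa-let-7g-5p had 65 purple tags (50.2 to 82.8) and 35 white tags (24.4 to 48.7). Its 21-nt form gga-let-7g-5p had 31 purple and 22 white tags. For let-7f, the 22-nt hsa-let-7f-5p had 48 purple tags (35.4 to 63.6) and 30 white tags (20.2 to 42.8), and the 21-nt ggo-let-7f had 40 purple and 33 white tags. In each of these 4 sequences the purple count was the higher one, but the purple library also held 1.73 times the listed tags.

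The remaining members were at or near the listing minimum. In let-7b, known in mice as a repressor of the neural stem cell receptor TLX, the 21-nt aca-let-7b-5p had 7 purple and 8 white tags and the 22-nt hsa-let-7b-5p 5 and 4. The let-7a form shared with the owl limpet, hsa-let-7a-5p, had 4 purple tags (1.09 to 10.2) and 2 white tags (0.24 to 7.22), and bmo-let-7-5p had 3 and 2. Human let-7a is known as a repressor of RAS. Of the let-7d forms, hsa-let-7d-5p had 3 purple tags and an empty white cell, and aca-let-7d-5p had 2 tags in each library. The let-7d miRNA is known to repress HMGA2 in human lung. For miR-98, hsa-miR-98-5p had 2 purple tags and an empty white cell. At these counts no difference between the libraries was detectable.

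**Figure D1:**
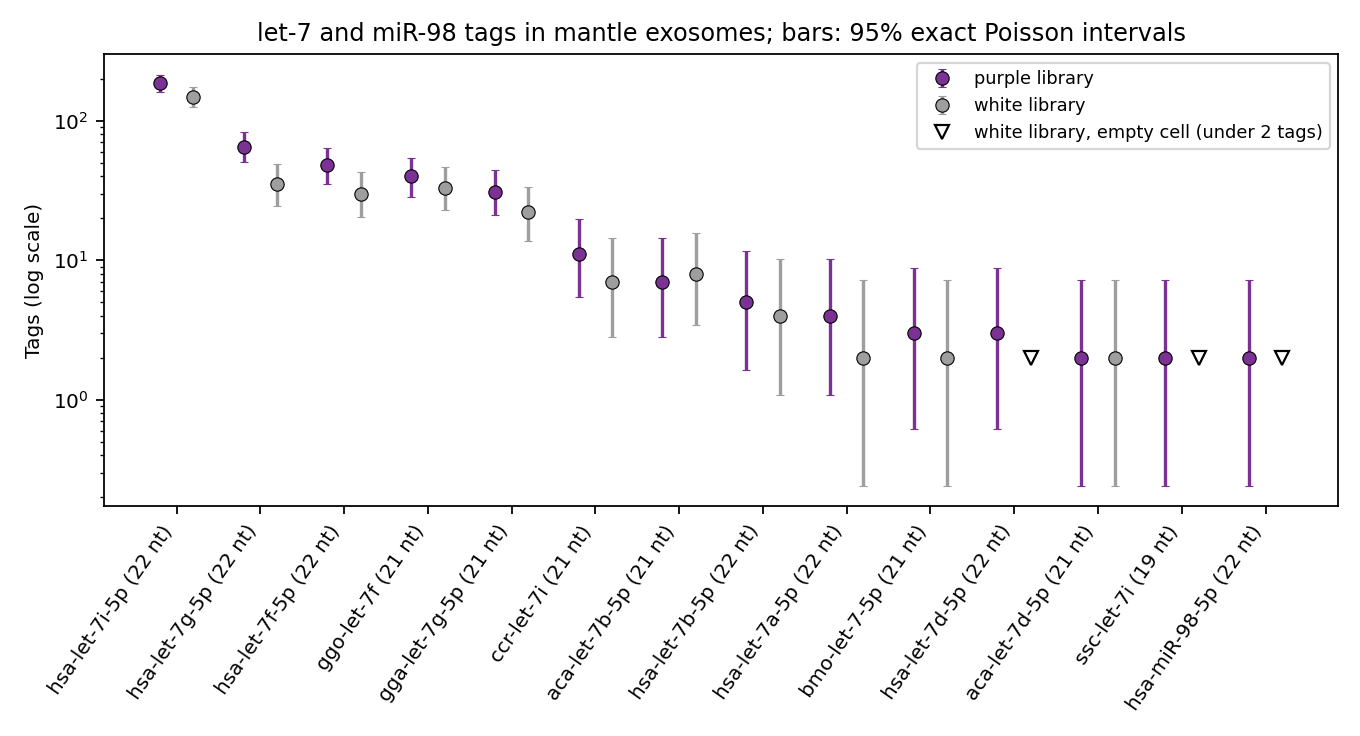
Tags of the 14 let-7 and miR-98 sequences (log axis) in the purple and the white library, with 95% exact Poisson intervals; open triangles at 2 tags mark empty cells. The let-7i, let-7g and let-7f forms of 21 and 22 nt lie at 7 tags or more in both libraries, and the let-7a, let-7d and miR-98 sequences at 4 tags or fewer.

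With length forms summed, let-7i had 198 purple and 156 white tags. The next members were let-7g with 96 purple and 57 white tags and let-7f with 88 and 63. Then came let-7b with 12 in each library, let-7a with 7 and 4, let-7d with 5 and 2, and miR-98. In both libraries the Poisson interval of let-7i lay above those of let-7g and let-7f, and these lay above that of let-7b. The neighbours let-7g and let-7f overlapped in both libraries and stood in opposite order. The neighbours from let-7b to let-7a, let-7d and miR-98 also overlapped. Summed over catalogue entries, let-7i was again first with 3583 purple and 2873 white tags. There let-7f stood above let-7g in both libraries, with 1712 against 1325 tags in purple and 1086 against 740 in white, and let-7a moved above let-7b, with 419 against 159 tags in purple and 220 against 144 in white.

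A share within the family does not depend on how the libraries are scaled to each other. Of the let-7 tags, let-7i took 48.5% in purple (43.6 to 53.5) and 53.1% in white (47.2 to 58.9). The odds of a let-7 tag being let-7i were 0.83 times those in white (exact conditional interval 0.61 to 1.14). The share of let-7g was 23.5% in purple (19.5 to 28.0) and 19.4% in white (15.0 to 24.4), an odds ratio of 1.28 (0.87 to 1.89). The share of let-7f was 21.6% (17.7 to 25.9) in purple and 21.4% (16.9 to 26.6) in white, an odds ratio of 1.01 (0.69 to 1.48). The let-7a sequences, which include the form listed for a mollusc, took 1.72% (0.69 to 3.50) in purple and 1.36% (0.37 to 3.45) in white. With each sequence counted once, each of these 4 odds ratios had an interval that included 1. On that count no shift in the make-up of the family was detectable at this depth. For let-7a the odds ratio was 1.27 (0.32 to 5.95), which leaves room for a several-fold difference in either direction. Summed over entries, let-7i took 49.2% of let-7 tags in purple and 56.7% in white, and let-7g 18.2% and 14.6%. No intervals were computed for these sums.

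**Figure D2:**
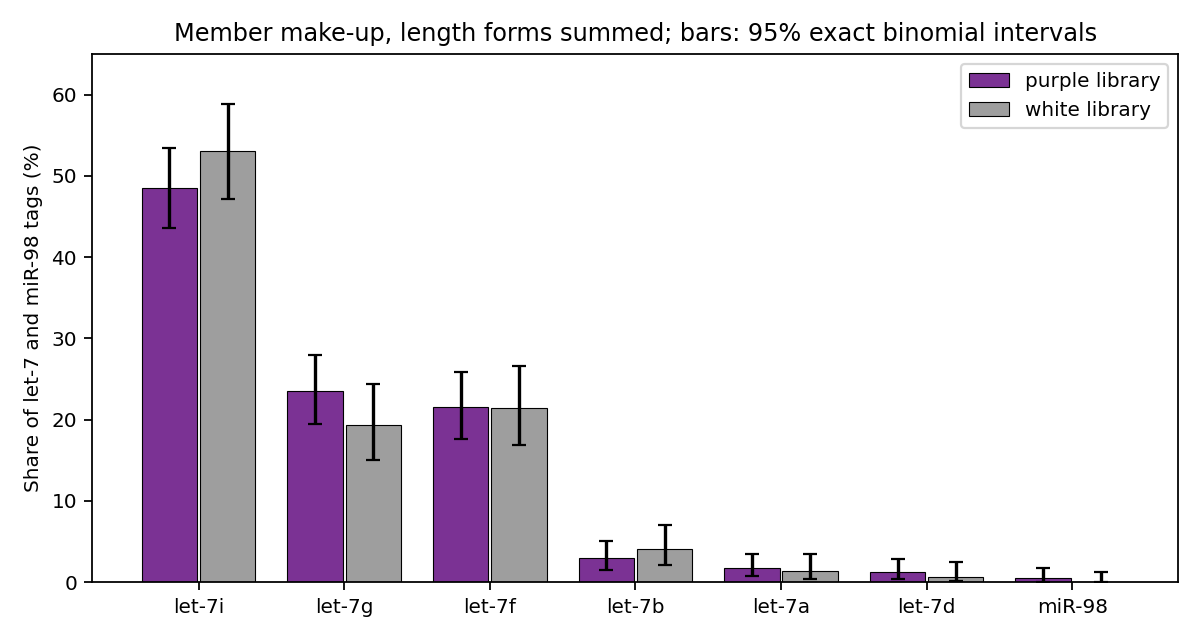
Share of all let-7 and miR-98 tags (%) taken by each member, length forms summed, in the purple and the white library, with 95% exact binomial intervals; empty cells added no tags. The tallest bars are those of let-7i, at 48.5% in purple and 53.1% in white, and the intervals of the libraries overlap for each member.

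Length forms were compared by the part of a member's tags on its 22-nt form. In let-7i this was 93.4% in purple (89.0 to 96.5) and 95.5% in white (91.0 to 98.2). In let-7g it was 67.7% in purple (57.4 to 76.9) and 61.4% in white (47.6 to 74.0). In let-7f it was 54.5% in purple (43.6 to 65.2) and 47.6% in white (34.9 to 60.6). The let-7b forms held too few tags to place, with 5 of 12 on the 22-nt form in purple and 4 of 12 in white. Within each library the interval of let-7i lay above those of let-7g and let-7f, while for each member the purple and white intervals overlapped. Each shorter form is wholly contained in its 22-nt form, and how the authors shared reads between such forms is not stated. These shares are therefore shares of assigned tags, not measured RNA lengths. The intervals do not cover that assignment, and its part in the shares was not tested.

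The forms have unequal numbers of entries, and the intervals above rest on counting each sequence once. Summing over entries kept let-7i highest but changed the order of let-7g and let-7f, whose intervals overlapped within each library. There were 34 entries of the 22-nt let-7f against 2 of the 21-nt form, 18 against 5 for let-7g, and 19 against 6 for the 22-nt and 21-nt let-7i. Summed over entries, the 22-nt share was 98.1% in purple and 98.5% in white for let-7i, 88.3% and 85.1% for let-7g, and 95.3% and 93.9% for let-7f, which put let-7f above let-7g. Each sequence has the same number of entries in both libraries, so summing over entries is no separate check on how close they were. For each of these 3 members the 22-nt share was at most 6.93 percentage points apart, purple against white, when each sequence was counted once, and at most 3.17 points apart when entries were summed.

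**Figure D3:**
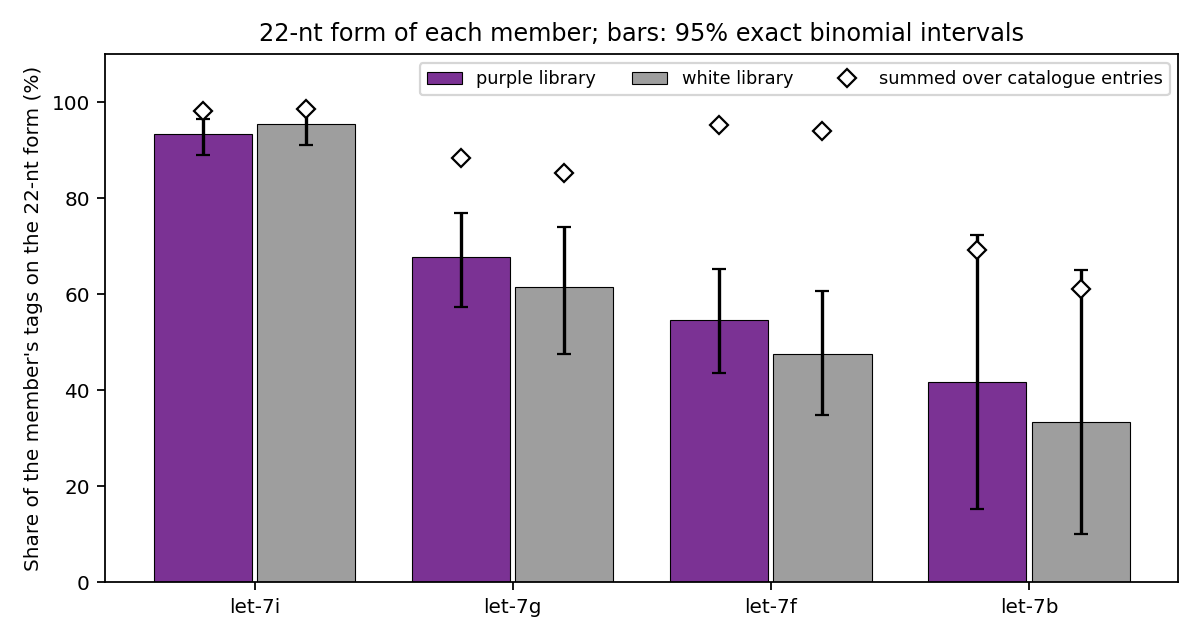
Share of a member's tags on its 22-nt form (%) in the purple and the white library for the 4 members with at least 10 tags in each library, with 95% exact binomial intervals; diamonds give the share summed over catalogue entries. Bars of let-7i reach 93.4% in purple and 95.5% in white, and those of let-7f 54.5% and 47.6%, while the diamonds of let-7f stand at 95.3% in purple and 93.9% in white.

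Over all members, 312 of 408 purple let-7 tags (76.5%, 72.0 to 80.5) and 220 of 294 white ones (74.8%, 69.5 to 79.7) were on 22-nt forms. Among the other sequences the 22-nt share was 46.4% in purple (44.5 to 48.3) and 56.2% in white (53.6 to 58.7). These include hsa-miR-1246, with 302 purple and 8 white tags, whose part in the 2 shares was not tested. For let-7, 22 nt is the longest listed form of every member, but the leading form of another family can have another length. The let-7 share and that of the other sequences thus do not compare like forms. Without let-7i, the let-7 share was 60.5% in purple (53.5 to 67.1) and 51.4% in white (42.8 to 60.0). In the other families, 18 pairs of forms that differ by 1 base at the 3′ end had at least 30 tags. Their longer form held from 4.84% to 99.3% of the purple tags of a pair, with a median of 54.1%, and from 3.03% to 98.4% of the white tags, with a median of 48.3%. The 3 such pairs in let-7i, let-7g and let-7f lay within that range, from 54.5% to 94.4% in purple and from 47.6% to 95.5% in white.

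The comparison of purple with white mussels belongs to a study of how nacre colour forms. As a part of all listed tags, the let-7 family was lower in purple, with a log2 ratio of purple to white of -0.32 (exact conditional interval -0.53 to -0.09). Within the family, hsa-let-7i-5p had a ratio of -0.48 (-0.79 to -0.15). The other 13 sequences together stood at -0.17 (-0.47 to 0.15), with an interval that included 0. This direction depended on the scaling. With the multipliers behind the authors' deposited normalized values, which shift every log2 ratio up by 0.43, the family stood at 0.12 (-0.10 to 0.34) and hsa-let-7i-5p at -0.043 (-0.36 to 0.28). With the TMM scaling of edgeR the family stood at -0.043 (-0.26 to 0.18). The sign of the family's ratio thus changed with the scaling. The interval also included 0 with DESeq2 size factors (-0.11, interval -0.33 to 0.11) and when the single sequence hsa-miR-1246 was left out of the totals (-0.18, interval -0.39 to 0.05).

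Of the 14 members, 7 had at least 10 tags over both libraries, the minimum for reading a single ratio. None of the 7 was at least 2-fold higher in purple, where 4.35% of all 69 such sequences were. None was at least 2-fold lower, where 8.7% of the 69 were. The lowest ratio was that of aca-let-7b-5p at -0.97 (-2.68 to 0.68), which passed 2-fold, at -1.15, without the red cell families described below in the totals, as did 13% of the 69, and at -1.02 without let-7 in them, as did 11.6%. The highest ratio was that of hsa-let-7g-5p at 0.10 (-0.51 to 0.74). Between them lay ggo-let-7f at -0.51 (-1.21 to 0.20), gga-let-7g-5p at -0.30 (-1.13 to 0.57), ccr-let-7i at -0.17 (-1.63 to 1.47) and hsa-let-7f-5p at -0.12 (-0.80 to 0.60). The interval of 1 of the 7, hsa-let-7i-5p, lay below 0, as did 8.7% of the 69, and that of none lay above 0, as did 5.8%. The median ratio of the 7 was -0.30, beside -0.10 for all 69. Under the deposited scaling these medians were 0.13 and 0.34. There 4 of the 7 members had a ratio above 0, and 62.3% of the 69 did.

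**Figure D4:**
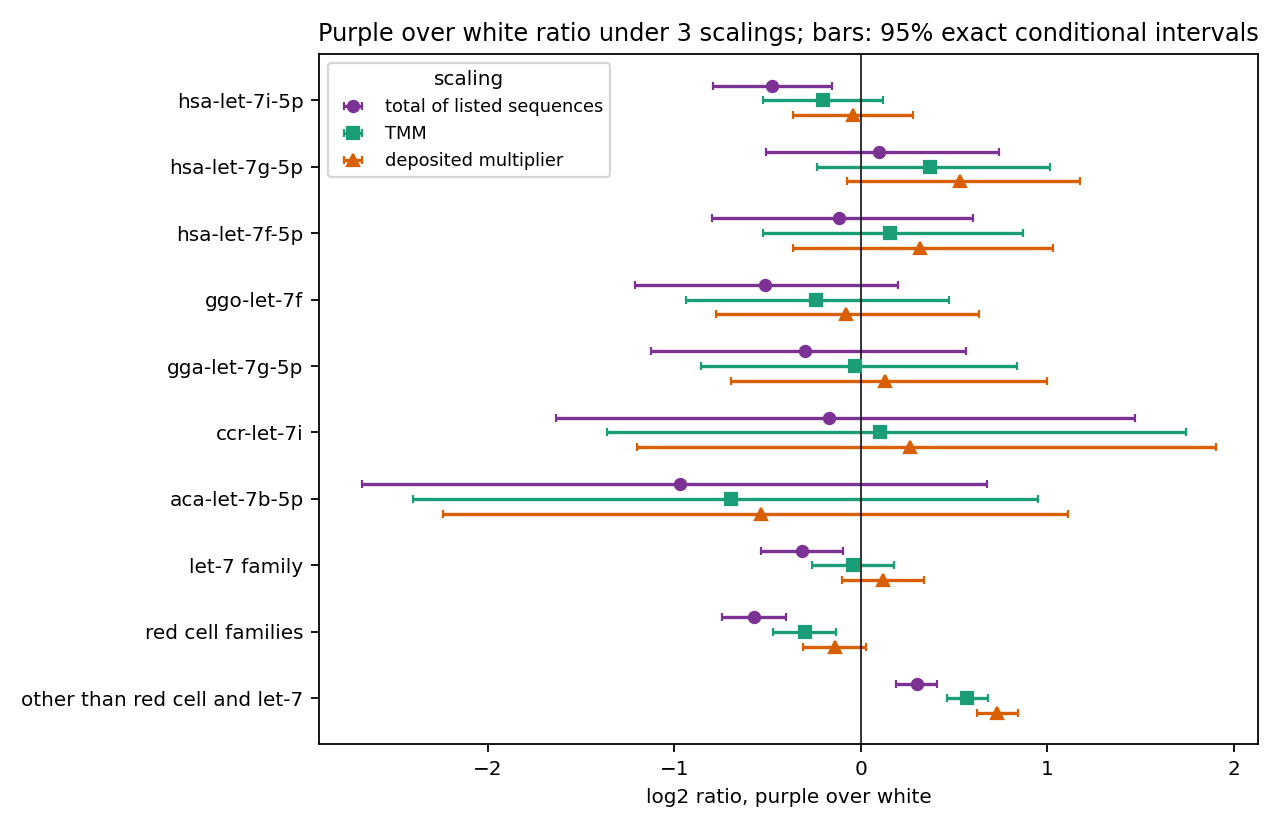
Log2 ratio of purple to white for the 7 let-7 sequences with at least 10 tags, for the let-7 family, for the red cell families and for the remaining sequences, under 3 scalings, with 95% exact conditional intervals. The let-7 family lies at -0.32 with the total of listed sequences, at -0.043 with TMM and at 0.12 with the deposited multiplier.

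The libraries held other sequences that were set beside the let-7 values. The vertebrate families miR-451, miR-486, miR-144 and miR-16 are called red cell families here, as a label for the set. Their cell of origin was not measured, and none is taken to be limited to red cells. These families are abundant in blood, and all 4 were listed. They held 610 purple tags, or 19.4% (18.0 to 20.8), and 526 white tags, or 28.9% (26.8 to 31.0), a log2 ratio of -0.57 (-0.74 to -0.40). It was -0.30 (-0.47 to -0.13) with TMM and -0.14 (-0.31 to 0.03) with the deposited multiplier. On the share of listed tags both they and let-7 were lower in purple, and their part in the let-7 result was not tested. Relative to the total without these families, let-7 held 16.1% of the purple and 22.7% of the white tags, a log2 ratio of -0.50. Of 16 protostome families looked for as markers of mussel RNA, such as bantam and miR-71, 0 were listed. This does not show that mussel RNA was absent. The catalogue and the mapping settings are not stated, and a family under 2 tags would not be listed.

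Of 10 partner and relative families of let-7, among them miR-100, miR-125, lin-4 and miR-202, 1 was listed. This was miR-99, a close relative of miR-100, whose ipu-miR-99b (catfish) had 7 purple and 3 white tags and whose hsa-miR-99b-5p had 2 purple tags and an empty white cell. By total tags, let-7 was the third of 82 families in purple, after miR-451 with 482 and miR-151 with 416 tags, and the second in white, after miR-451 with 393 tags. Among the 20 other families with at least 30 tags, those with the log2 ratio nearest to let-7 were miR-144, miR-451 and miR-182, at -0.46, -0.49 and -0.53. They lay 0.14, 0.18 and 0.21 from let-7. This likeness spans only 2 libraries, and the interval of each of the 3 overlapped that of let-7.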

How the data were processed

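Small RNA from mantle exosomes of 1 purple and 1 white mussel library was analysed. Per the submitters' processing notes, cutadapt 1.9.2 and Novoalign 3.02.12 were used. Their settings, the miRNA catalogue and the genome build were not stated. The raw sheet holds estimated counts (tags) that the authors rounded to whole numbers, with values under 2 left empty. The normalized sheet, recorded as a score for want of a named unit, was deposited as tags times 1 multiplier per library, 5.50 in purple and 7.04 in white. Columns were matched to samples by the number ending each title.

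Each distinct sequence was counted once, with library totals of 3141 tags in purple and 1820 in white. Sums over entries are an alternative. Empty cells entered single ratios at 2 tags and sums at 0. Log2 ratios used 0.5 added per count and exact conditional 95% intervals. Shares have Clopper-Pearson intervals. Rather than a count model, which needs replicates, only intervals were computed (Python 3.11.15, SciPy 1.17.1), with scalings from edgeR 4.0.16 and DESeq2 1.42.0. The intervals were tested on simulated whole counts at known depth, without rounded fractions, entries that share tags or empty cells. Named are all let-7 and miR-98 sequences, listed partner and relative families, red cell families, protostome families, and the 3 families nearest in ratio among those with at least 30 tags. Families used as size comparison in the ranking (miR-151) were chosen after their values were seen. Members and lists were chosen with earlier results of these data known.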

Additional observations from a re-analysis of the deposited data

How the results depend on the processing

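No paired analysis was possible because purple and white mussels had 1 library each, which also left no replicate to leave out. The let-7 log2 ratio of -0.32 became 0.12 with the deposited multiplier and -0.043 with TMM. Under the other 10 settings it moved by less than its counting error and stayed negative, from -0.50 without the red cell families to -0.10 with tags summed over entries. Leaving out miR-98 was chosen after seeing the data. The interval, below 0 as reported, reached past 0 with DESeq2 size factors (0.11), the total over all entries (0.07), the total without miR-1246 (0.05) and without hsa-let-7i-5p (0.15). The share of let-7 was 14.4% in purple without miR-1246 in the total, 16.1% in purple and 22.7% in white without the red cell families, and 22.4% and 24.1% with tags summed over entries. No member passed the fold limit higher in purple under the 12 settings. These used 2-fold and at least 10 tags, apart from the settings at 1.5-fold, with no minimum and at 30 tags. The setting with empty cells at 0 tags could not change this count, as no member with at least 10 tags had an empty cell. It did change the sign of 3 members below 10 tags. There hsa-let-7d-5p stood at 2.02, against -0.30 as reported, and ssc-let-7i and hsa-miR-98-5p at 1.53, against -0.79. Their intervals included 0 both ways. The count at least 2-fold lower, 0 as reported, was 1 of 7 without the red cell families (13% of all 69 sequences), without let-7 in the total (11.6%) and at a limit of 1.5-fold (23.2%), in each case aca-let-7b-5p. On the longest form alone, let-7i took 59.3% of let-7 tags in purple and 67.7% in white, and let-7f 15.4% and 13.6%. Summed over entries, let-7g took 18.2% in purple and 14.6% in white. The 22-nt share became 98.1% and 98.5% for let-7i, 88.3% and 85.1% for let-7g, and 95.3% and 93.9% for let-7f. In the order of members, 4 changed place in purple and 2 in white. Of the 115 values of single sequences, 1 left its counting interval, hsa-let-7i-5p at -0.043 with the deposited multiplier. The cause of these shifts, beyond the change in total or entries itself, was not tested. For the 7 sequences under 10 tags, no difference between the libraries was detectable at this depth with each sequence counted once.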
